A study of Capra hircus with 2 samples.

Results

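The sequences described here were listed in the table of known miRNAs as products of a miRBase hairpin arm that had no mature entry of its own. Such names are written with a lower-case mir and the ending p5 or p3. A total of 31 of the 587 known names met this rule after repeated names were collapsed. They came from 24 hairpins, copies counted apart, and 19 lay on the 5′ arm (p5) and 12 on the 3′ arm (p3).

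Small RNA was sequenced from the endometrium of Xinong Saanen dairy goats to compare the receptive with the pre-receptive phase. The R library (receptive endometrium) came from gestational day 15 and the P library (pre-receptive endometrium) from gestational day 5. All does were multiparous, 24 months old, synchronised in estrus and mated naturally. Tissue was taken from 10 goats per phase, and RNA of 9 of them was mixed into 3 samples that made 1 library per phase, sequenced 3 times.

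Abundance is given as normalized expression (NE), the authors' reads of a name divided by a size factor of the library. The study's methods describe NE instead as reads scaled to the clean reads of the library, but the deposited columns did not follow this, with sums of 1637420 NE in R and 4706018 NE in P. Values per clean read therefore follow the scaling of those methods, and values per listed read use the reads of all known names. A single read was worth 0.860 NE in R against 1.16 NE in P. The reads recovered in this way for all known names added up to 1904242 in R and 4046632 in P. They were whole numbers, within 0.01 read, for 85.2% of the names above 0 in R and 87.5% in P. The rest held fractions of a read, such as 13.5 reads. There were no replicate libraries, so each ratio compares 2 libraries and not the phases. For the same reason, the 95% exact (Clopper-Pearson) intervals and the p-values cover the counting error of reads only. Reads were amplified by PCR and carried no molecular identifiers, so the intervals may be too narrow for the counting error of molecules. In bulk tissue, fewer cells of a type and less RNA per cell cannot be told apart.

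In miRNA biogenesis Drosha and Dicer cut a hairpin to a duplex of both arms with short 3′ overhangs, and usually one strand is kept in Argonaute while the other is degraded. Bases at the 5′ end of the kept strand, the seed, pair with target mRNAs. The miR-2284 and miR-2285 families are large groups of hairpins known from cattle and other ruminants, whereas the mir-7641 entry is known to match 5S ribosomal RNA.

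The sequences on which the results turn are printed 5′ to 3′, with the seed (bases 2 to 8) in capitals. The first set holds the 3 mir-7641 names, which carried most of the reads.

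hsa-mir-7641-2-p3_1ss22TC: gAAGCTAAgcagggtcgggccc
hsa-mir-7641-2-p5: aTCTCGGAagctaagcagggtc
hsa-mir-7641-2-p3_1ss1TC: cGGTTAGTacttggatggga

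The second set pairs opposite arms with the annotated mature sequence of the same hairpin, for the bovine hairpins mir-3431, mir-3432 and mir-2285o.

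bta-mir-3431-p3: aTCTAGAGgactgactgaaatt
bta-miR-3431: cCTCAGTCagccttgtggatgt
bta-mir-3432-2-p3: cAGCAACTaaagatccctcagg
bta-miR-3432_1ss21TC: tGCGGGATctttagttgtggcg
bta-mir-2285o-3-p5_1ss12TC: aAAAATTTgttcgggtttttct
bta-miR-2285o_R+3: aAACCCGAacgaacttttgggct

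The third set shows further members with at least 10 reads over both libraries, beside 2 annotated names of other hairpins that were near to some of them.

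bta-mir-2285m-3-p5_1ss1AG: gAAAGGTTcatttgggttttt
bta-mir-2284z-4-p5_1ss1AG: gAAAGTTTgtttgggtttttct
bta-miR-2284aa_L-2R+2: aAAAGTTTgtttgggtttttc
bta-miR-2284y_R+1_1ss8CT: aAAAGTTTgttcgggtttttct
bta-mir-2285k-3-p3_1ss4GC: aCCCGAATgaactttttggcct
bta-mir-502b-p5: tAATTCTTgctccccaggtgaga

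In these names the ending 1ss marks a single substitution against the hairpin, and L or R marks bases lost or gained at the 5′ or 3′ end. Of the 31 members, 22 carried a substitution and 9 did not. Positions are counted from 1 at the 5′ end of the listed sequence, with the hairpin's base first. The mir-7641 names carried T22C and T1C, bta-mir-2285m-3-p5 and bta-mir-2284z-4-p5 each carried A1G, bta-mir-2285o-3-p5 carried T12C and bta-mir-2285k-3-p3 carried G4C. Of the 22 substitutions, 7 lay within the seed, 4 at base 1 and 11 beyond base 8, and 13 were transitions. These counts are of names, so the same hairpin base can enter under several names. This was so for G4C and G3C of the bta-mir-2285k-3-p3 names, and for C21T and C21A of the bta-mir-2285ac-p5 names. For 0 of the 22 was the sequence without the substitution listed under any known name with the same ends, and for 2, both of bta-mir-2285ac-p5, it lay within a longer listed one. The name bta-mir-2285m-3-p5_1ss1AG, for instance, had 311 reads over both libraries, with no unsubstituted form listed. The source of the substitutions was not tested.

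Bovine miR-2284 and miR-2285 hairpins gave 22 of the 31 names, human mir-7641 gave 3, and 6 came from other hairpins (mir-3431, mir-3432, mir-502b, mir-2887, mir-3548 and mir-4335). The arms were unevenly spread between the ruminant families. The 17 miR-2285 names lay on p5 in 14 cases and on p3 in 3. The 5 miR-2284 names lay on p5 in 1 case and on p3 in 4.

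The label of an opposite arm was checked against the hairpin segments in the deposited table, where lower case occurred in all 31 members and in 0 of the other names. In 6 members the segment also held capitals at its 5′ end. For both bta-mir-2285k-3-p3 names these capital stretches of 18 and 17 bases lay inside bta-miR-2285k, the annotated sequence of that hairpin. These names therefore overlapped the annotated sequence and were not opposite to it. For bta-mir-2284z-4-p5 the 19 capitals lay within the sequence listed for bta-miR-2284aa, of another hairpin. For both overlapping mir-7641 names and bta-mir-2285n-3-p3 no listed annotated sequence held the capitals. Whether these names also overlap an annotated sequence of their hairpin could therefore not be checked. The 6 names held 5923 NE in R and 1603 NE in P, most of the NE of all members. Nearly all of this came from the overlapping mir-7641 names, with 3564 and 2335 NE in R and 929 and 657 NE in P.

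The members were short RNAs of ordinary miRNA length. They measured 18 to 23 nt with a median of 22 nt, and 26 of 31 (83.9%) had 21 to 23 nt, compared with 442 of the 556 other known names (79.5%). None of the members had 24 to 26 nt, where 30, 7 and 4 other names lay. The 18 nt member was bta-mir-2887-2-p5, and bta-mir-2284f-p3 and bta-mir-2285r-p5 had 19 nt. Members began with A in 48.4% and with T in 9.68% of cases, other known names with A in 29.3% and T in 40.5%. The other names of miR-2284 and miR-2285 began with A in 67.6% and T in 17.6%.

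**Figure D1:**
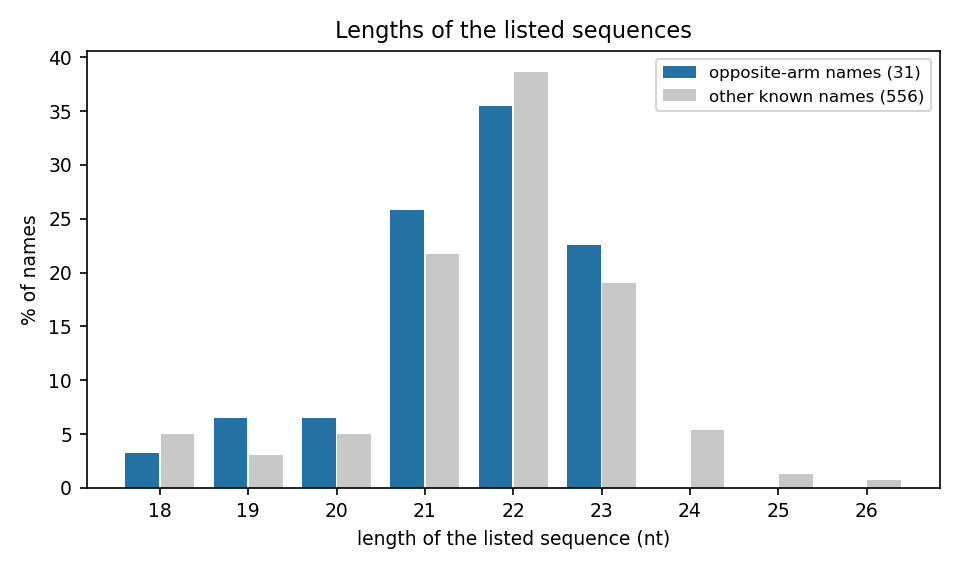
Length of the listed sequence in nt against the percent of names, for the 31 members and the 556 other known names. Both distributions have their highest bar at 22 nt, with 35.5% of members and 38.7% of other names, and no member is longer than 23 nt.

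Abundance was very uneven. The members together held 6530 NE in R and 2103 NE in P, which was 0.399% and 0.0447% of the NE of all known names. The mir-7641 names alone held 6210 NE in R and 1668 NE in P. Without them the members summed to 320 NE in R and 435 NE in P, a ratio of 0.735 (0.635 to 0.851), so the sum of all members followed mir-7641. This direction depended on the scaling, as the log2 ratio of the remaining sum was −0.44 in NE, 0.34 per clean read and 1.08 per listed read.

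Of the 31 members, 28 were above 0 in R, 23 in P and 20 in both. A name was tested when it was above 0 in both libraries with at least 1 NE in 1 of them, and called when NE differed by over 2-fold with an interval that left out equality. Among the 20 members tested, 4 were higher in R, beside 15.9% of the 441 known names tested, and 2 were lower in R, beside 10.9%. The higher members were the 3 mir-7641 names and bta-mir-2285o-3-p5, and the lower were bta-mir-2285m-3-p5 and bta-mir-502b-p5. Since 3 of the 4 higher names share 1 hairpin, they were not independent cases. The median log2 ratio of the 20 members was 0.44, that of the 447 known names above 0 in both was 0.02, and that of the 17 members without mir-7641 was 0.15. Per clean read every log2 ratio lay 0.78 higher, and per listed read 1.52 higher. The members called higher and lower then numbered 5 and 0 per clean read, and 8 and 0 per listed read, beside 152 and 19 or 249 and 10 of all names tested.

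**Figure D2:**
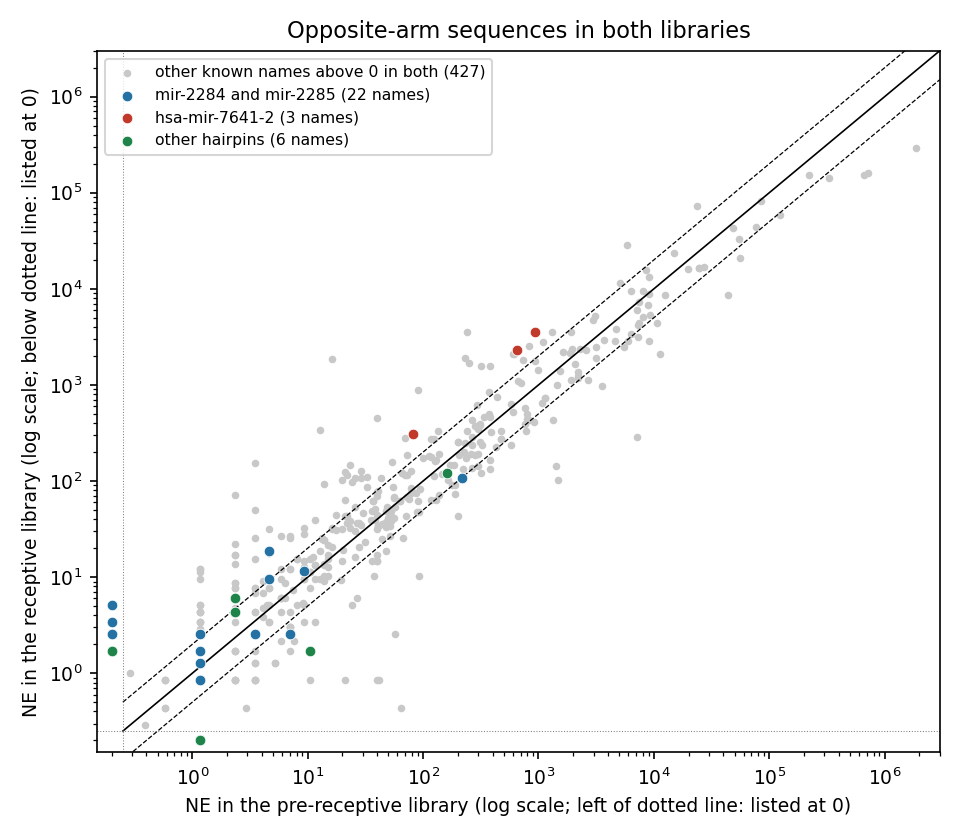
NE in R (vertical axis) against NE in P (horizontal axis), both on log scales, for members by hairpin group and for other known names above 0 in both (grey), with equal NE as a solid line, 2-fold as dashed lines, names listed at 0 beyond the dotted lines, and names with equal values drawn on 1 spot. The 3 mir-7641 names lie at 311 to 3564 NE in R, above the upper 2-fold line, and most other members lie under 10 NE in both libraries.

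Of the mir-7641 sequences, 2 were the most abundant members in both libraries, and all 3 were called higher in R. The name hsa-mir-7641-2-p3_1ss22TC had 3564 NE in R (4145 reads) and 929 NE in P (799 reads), 3.84-fold higher in R (3.56 to 4.14), and ranked 38 of all known names in R and 73 in P. The name hsa-mir-7641-2-p5 had 2335 NE in R and 657 NE in P (2715 and 565 reads), 3.55-fold higher in R (3.24 to 3.90). The third, hsa-mir-7641-2-p3_1ss1TC, had 311 NE in R and 81.4 NE in P (362 and 70 reads), 3.82-fold higher in R (2.95 to 5.01). These calls were kept under each scaling tried.

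These names also shared sequence. The last 16 bases of the p5 sequence were the first 16 bases of p3_1ss22TC, printed here with the shared bases in capitals.

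hsa-mir-7641-2-p5: atctcgGAAGCTAAGCAGGGTC
hsa-mir-7641-2-p3_1ss22TC: GAAGCTAAGCAGGGTCgggccc

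Joined, they span 28 bases, and the capitals of their hairpin segments, 16 and 10 bases, ended at the same base. Both sequences thus lay along 1 strand and not opposite each other, so the labels p5 and p3 did not hold for this pair. The proportions of the 3 sequences differed little between the libraries. In R, p3_1ss22TC made up 57.4% (56.2 to 58.5) of their reads, p5 37.6% (36.5 to 38.7) and p3_1ss1TC 5.01% (4.52 to 5.54). In P the shares were 55.7% (53.1 to 58.3), 39.4% (36.9 to 42.0) and 4.88% (3.82 to 6.13). The odds ratio of p3_1ss22TC to p5 between the libraries was 1.08 (0.957 to 1.22; Fisher's exact test, two-sided, p = 0.204, adjusted over 3 comparisons 0.611). That of p3_1ss22TC to p3_1ss1TC was 1.00 (0.757 to 1.31; exact p = 1), and that of p5 to p3_1ss1TC 0.929 (0.698 to 1.22; exact p = 0.635, adjusted 0.952). No difference in proportions was detected among the 3 sequences, and the intervals bound it most tightly for the first pair.

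Further names resemble fragments of structural RNA. The rRNA-like mmu-miR-6240_R-8_1ss1CA, which was no member, had 1583 NE in R against 381 NE in P (log2 ratio 2.05) and was called higher. The 7 other names that end in CCA, as mature tRNAs do, summed to 441 NE in R and 102 NE in P (log2 ratio 2.11), with 1 of them at 0 in P and hsa-miR-4454_L+1_1ss3GA the most abundant. Of these 7, 6 were tested, 5 were called higher and 0 lower. Of the members also fixed as fragment-like, bta-mir-2887-2-p5 was not called in NE, with 7 reads against 2, and ssc-mir-4335-p3 was not tested, with 2 reads against 0. In the study's own summary of raw reads, rRNA, tRNA and reads discarded for adapter or length each took a larger share in R than in P. The part of RNA fragments in the mir-7641 difference was not tested.

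Among the miR-2284 and miR-2285 members, bta-mir-2285m-3-p5_1ss1AG was the most abundant. It had 107 NE in R (125 reads) and 216 NE in P (186 reads), a ratio of 0.497 (0.393 to 0.627), and was called lower in R. The log2 ratio of −1.01 became −0.23 per clean read, where it was no longer called, and 0.51 per listed read, where the direction turned. Another form of the same arm, bta-mir-2285m-3-p5_1ss17TA, had 1 read in each library. No annotated arm of the mir-2285m hairpin was listed.

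The name bta-mir-2285o-3-p5_1ss12TC had 18.9 NE in R (22 reads) and 4.65 NE in P (4 reads), 4.07-fold higher in R (1.38 to 16.2). This call was kept under the 3 other scalings and was lost when reads of names with 2 entries were counted as listed once. The names bta-mir-2285k-3-p3_1ss4GC, with 11.6 NE in R and 9.30 NE in P, and bta-mir-2284z-4-p5_1ss1AG, with 9.46 NE in R and 4.65 NE in P, were not called. Their ratios were 1.25 (0.507 to 3.56) and 2.03 (0.603 to 8.76), differences that were not detectable in NE. This depended on the scaling. The name bta-mir-2284z-4-p5_1ss1AG was called higher per clean read (log2 ratio 1.81), per listed read (2.55) and with Fisher's exact test, and bta-mir-2285k-3-p3_1ss4GC per listed read (1.84).

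All 22 miR-2284 and miR-2285 members summed to 184 NE in R and 257 NE in P, with bta-mir-2285m-3-p5_1ss1AG as the most abundant in each library. Without the mir-2285m-3 names the sum was 75.7 NE in R and 39.5 NE in P, a log2 ratio of 0.94 in place of −0.48. The other 34 names of these families held more, 1342 NE in R and 2142 NE in P (log2 ratio −0.67), most of it in bta-miR-2284x_R+1. Without that name the sum was 209 NE in R and 231 NE in P (log2 ratio −0.15), a ratio of 0.903 (0.746 to 1.09). Of their 21 tested names, 2 were called higher and 1 lower. The median log2 ratio of the 24 names above 0 in both libraries was −0.01. Per clean read the log2 ratios of the member sum and of the other names turned to 0.30 and 0.11.

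The bovine name bta-mir-502b-p5, of a hairpin known from the cluster that also holds miR-500 and miR-362, had 1.72 NE in R (2 reads) and 10.5 NE in P (9 reads). The ratio was 0.164 with a wide interval of 0.0173 to 0.794, and it was called lower in R. Per clean read the log2 ratio of −2.61 became −1.82 and per listed read −1.08, and in neither was it called. Of the same cluster, 5 other names were listed. The most abundant was hsa-miR-362-3p_R-1, with 146 NE in R and 171 NE in P, followed by oar-miR-362_R-2, with 43.0 against 70.9 NE. The names cgr-miR-532-5p_R+2 (10.3 against 14.0 NE), hsa-miR-500a-3p_L-1R+1_1ss3GC (9.03 against 14.0 NE) and rno-miR-188-5p_R+2 (1 read in each library) were lower. Their log2 ratios ran from −0.72 to −0.23 in NE, where 0 of the 5 were called. The direction depended on the scaling, as all 5 log2 ratios were above 0 per clean read, which adds 0.78, and per listed read.

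**Figure D3:**
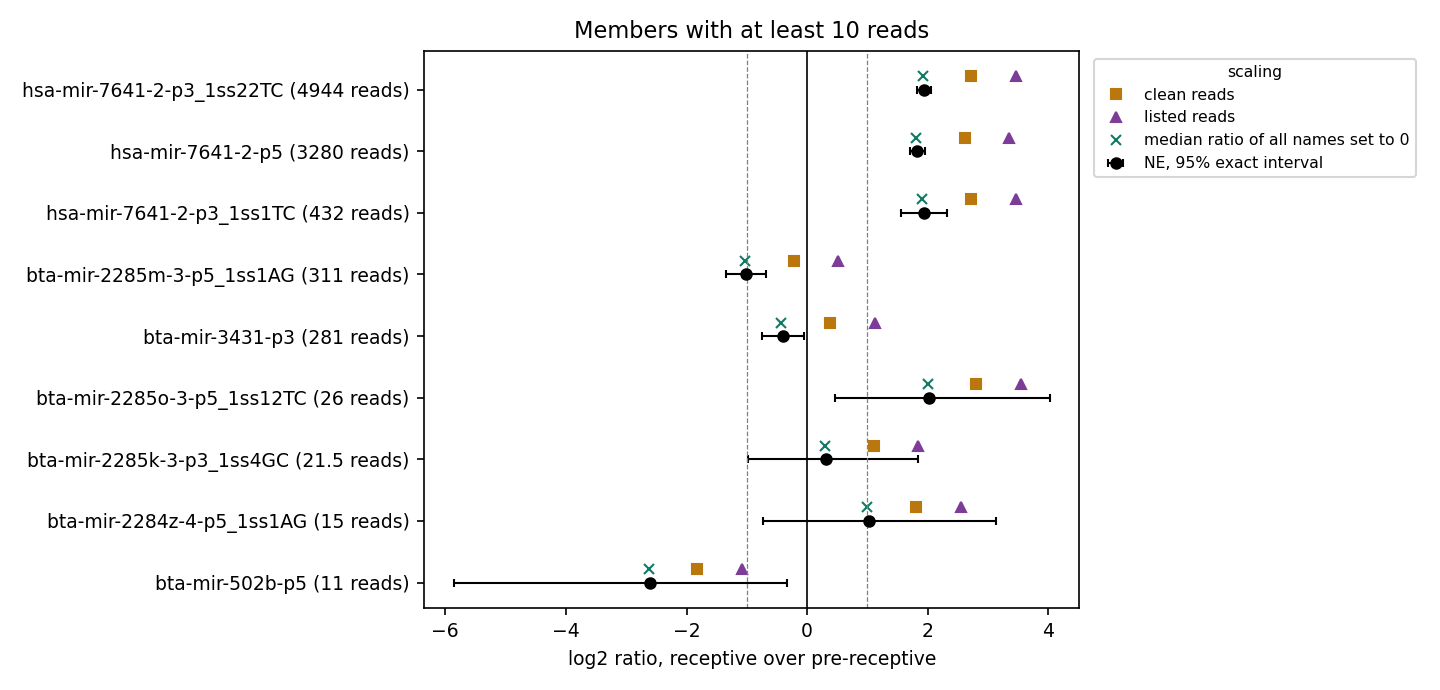
Log2 ratio of R over P for the 9 members with at least 10 reads over both libraries. Black points with bars give NE with 95% exact intervals, other marks the same ratio under 3 other scalings, and dashed lines 2-fold. The mir-7641 names lie right of the 2-fold line under every scaling, whereas bta-mir-2285m-3-p5_1ss1AG turns from −1.01 to 0.51 and bta-mir-3431-p3 from −0.40 to 1.12 per listed read.

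The remaining 22 members were close to the limit of detection. They had 1 to 9 reads over both libraries (median 2.75), 0 to 6.02 NE in R and 0 to 6.98 NE in P, where a count of 0 allows up to 3 reads, or 2.58 NE in R and 3.49 NE in P. Of these 22, 11 were tested and 0 were called in NE, beside 0% in either direction of the 88 known names tested with fewer than 10 reads over both libraries, so names this low could hardly be called. The log2 ratios of the 11 members ran from −1.44 in bta-mir-2284aa-3-p3 to 1.37 in bta-mir-2887-2-p5. The counts of bta-mir-2284aa-3-p3, summed over 2 different sequences listed under this name, were 3 reads in R and 6 in P, a ratio of 0.370 (0.0598 to 1.73). Those of bta-mir-2887-2-p5 were 7 and 2 reads, a ratio of 2.59 (0.493 to 25.5). Both intervals held equality in NE, while bta-mir-2887-2-p5 was called higher per listed read and with Fisher's exact test. A further 8 were listed in R alone, with 2 to 6 reads, and 3 in P alone, with 1 read each. The most abundant of the 8, bta-mir-2285f-2-p5_1ss10AG, had 5.16 NE in R (6 reads) and 0 in P, and the interval of its ratio began at 0.871. In NE, presence in 1 library was therefore no detectable difference for any of these 11 names. The lower bound of bta-mir-2285f-2-p5_1ss10AG became 1.50 per clean read and 2.50 per listed read, and that of bta-mir-2285s-p5_1ss14TC 1.40 per listed read, so 1 and 2 of the 11 then left out equality.

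An annotated mature sequence of the same hairpin was listed for 12 members (9 hairpins) and not for 19 (15 hairpins). Of the 12, the 10 that did not overlap it were compared with its most abundant variant. Only bta-mir-2285o-3-p5_1ss12TC had more reads than that variant, in R with 22 against 19, and 0 members did in P. With all variants summed its annotated arm had 29 reads in R, a member share of 43.1%, and 0 members then exceeded their annotated arm in R.

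The clearest case of a minor arm was bta-mir-3431-p3, with 122 NE in R (142 reads) and 162 NE in P (139 reads). Its annotated arm bta-miR-3431 had 1189 NE in R (1383 reads) and 2201 NE in P (1893 reads). The opposite arm therefore made up 9.31% (7.90 to 10.9) of the reads of both arms in R and 6.84% (5.78 to 8.03) in P. Neither arm was called in NE. The ratio of R to P was 0.755 (0.594 to 0.961) for the opposite arm and 0.540 (0.504 to 0.579) for the annotated arm. Per clean read their log2 ratios of −0.40 and −0.89 became 0.38 and −0.11, and per listed read 1.12 and 0.63, where the opposite arm was called higher. The odds ratio of both arms does not depend on the scaling. It was 1.40 (1.09 to 1.80; Fisher's exact test, two-sided, p = 0.00825, adjusted over 4 arm comparisons 0.0330), which counts reads of 2 libraries and does not compare the phases.

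The size of this shift was set against annotated hairpins. Of 74 hairpins with both a 5p and a 3p name listed under the same species, 46 had at least 10 reads of the less abundant arm and all counts above 0. Hairpins whose arms were listed under different species or without an arm ending were left out, and mir-126 entered as both hsa and oan. Their median log2 odds ratio of the less to the more abundant arm was 0.49, against 0.48 for mir-3431, and it was above 0 in 33 and below 0 in 13. Most of these estimates thus had the same sign as that of mir-3431, some of them near 0, and the annotated hairpins were not tested singly. An absolute value at least that of mir-3431 was found in 30 of the 46. Their median ratio of the arms was 0.164 in R and 0.130 in P, compared with 0.103 and 0.0734 for mir-3431, and 20 in R and 18 in P had a lower ratio than mir-3431. Both the arm ratio of mir-3431 and its difference between the libraries thus lay within the range of annotated pairs.

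The other comparisons of arms were limited by depth. The name bta-mir-3432-2-p3 had 5 reads in R against 2 in P, while the most abundant variant of its annotated arm, bta-miR-3432_1ss21TC, had 59 and 33. Its share was 7.81% (2.59 to 17.3) in R and 5.71% (0.700 to 19.2) in P, with a log2 odds ratio of 0.48 (−2.23 to 3.95; exact p = 1). Against all variants, with 96 and 67 reads, the share was 4.95% (1.63 to 11.2) in R and 2.90% (0.353 to 10.1) in P. The share of bta-mir-2285o-3-p5_1ss12TC beside bta-miR-2285o_R+3, with 19 and 9.5 reads, was 53.7% (37.4 to 69.3) in R and 29.6% (9.09 to 61.4) in P. Its log2 odds ratio was 1.46 (−0.75 to 3.73; exact p = 0.207, adjusted 0.276). The name bta-mir-2285k-3-p3_1ss4GC overlapped bta-miR-2285k_L-1R+2 and had 13.5 and 8 reads against 0.5 and 2.5 (exact p = 0.163, adjusted 0.276). None of these 3 differences was detectable at this depth.

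**Figure D4:**
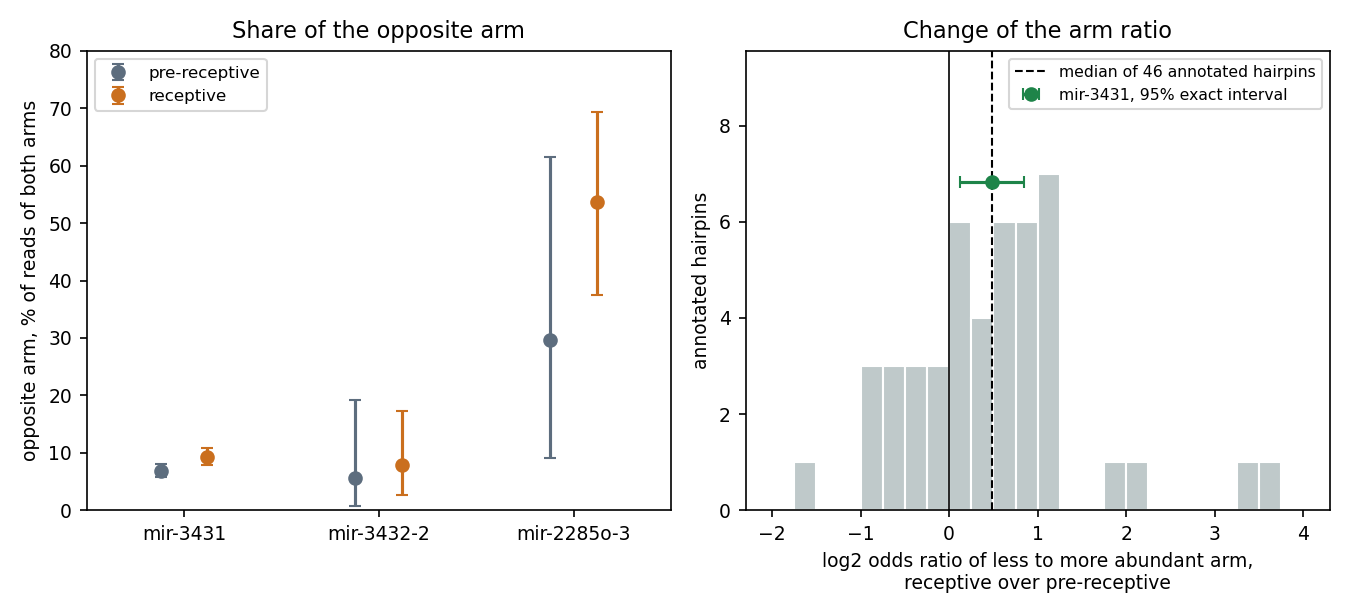
Left, percent of the reads of both arms that came from the opposite arm in P and R, with 95% exact intervals, for 3 hairpins. Right, number of annotated hairpins by log2 odds ratio of the less to the more abundant arm (R over P), with the median of the 46 hairpins dashed and mir-3431 as a point with its interval, set at an arbitrary height. The intervals of mir-3431 run from 7.90 to 10.9% in R and 5.78 to 8.03% in P, and its log2 odds ratio of 0.48 lies beside the median of 0.49.

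Members were also paired in silico with their annotated arm, as strands of a Dicer duplex would be. Of 10 pairs, 3 left 3′ overhangs of 2 nt at both ends, namely mir-3431, mir-3432-2 and mir-3548. The mir-3431 pair had 17 base pairs and a free energy of −21.7 kcal/mol, the mir-3432-2 pair 17 base pairs and −25.8 kcal/mol, and the mir-3548 pair 18 base pairs and −24.1 kcal/mol. None of the 7 pairs of miR-2284 and miR-2285 did so. Those had 14 to 21 base pairs and free energies from −28.4 to −13.9 kcal/mol, with overhangs from −2 nt, a recessed end, to 6 nt. The first 3 pairs thus ended as strands of a Dicer duplex do, while the pairs of the ruminant families, as listed, were offset. Depth was low for some of the first 3. The name bta-mir-3432-2-p3 had 5 reads in R and 2 in P. The name rno-mir-3548-p5 had 0 and 1, and its partner 1 and 3. Both mir-3548 names were also near to reverse complements of miR-200 family names, given below. Apart from bta-miR-2285f, the annotated partners in the 7 pairs of miR-2284 and miR-2285 were variants with bases lost or gained at an end. Such bases shift an overhang, so the offsets hold for the listed variants only. The name bta-mir-502b-p5, whose own partner was not listed, formed 16 base pairs (−22.6 kcal/mol) with the 500a-3p name, with overhangs of 1 and 3 nt.

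Some ruminant members lay close to annotated names of other hairpins. Measured by edit distance, the number of bases changed, lost or gained, 11 of the 22 lay within 3 of a known sequence of another hairpin (range 1 to 9, median 3.5). None of the 9 other members did (range 4 to 10). Of the 15 p5 members of these families, 14 were nearest to miR-2284 names alone, and all 7 p3 members were nearest to miR-2285 names alone. The exception was bta-mir-2285t-p5, at a distance of 9 from several names. The nearest name was thus often of the other family, but not always a close one. Of the 4 p3 members of miR-2284, bta-mir-2284aa-3-p3 lay at 3 from its nearest name and the others at 4, 6 and 9. The name bta-mir-2285o-3-p5_1ss12TC was at distance 1 from bta-miR-2284y_R+1_1ss8CT, which itself had 0.430 NE in R against 0.581 NE in P. The name bta-mir-2285n-3-p3_1ss19GT was at distance 1 from bta-miR-2285k_L-1R+2, and bta-mir-2285m-3-p5_1ss1AG at distance 2 from bta-miR-2284b_L+1R-1_1ss16TG. Whether reads at such distances came from the named hairpin or from a near copy was not tested.

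The 31 members held 28 distinct seeds, and 2 of these were shared by several members. The seed AAAGTTT occurred in bta-mir-2284z-4-p5 and both bta-mir-2285ac-p5 names, and also in annotated bta-miR-2284aa_L-2R+2 and bta-miR-2284y_R+1_1ss8CT, which summed to 9.75 NE in R against 19.9 NE in P. The seed AAAGGTT occurred in both bta-mir-2285m-3-p5 names and in no annotated name listed. In all, 6 members shared the seed of an annotated name and 25 did not. The name bta-mir-2285n-7-p5 shared AAAAGTT with 4 annotated names, which summed to 38.7 NE in R and 75.0 NE in P.

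Sums of markers of cell types fixed for this tissue differed between the libraries, though not each marker of a list did. Of 5 epithelial markers 4 were listed, with 7 names that summed to 32080 NE in R and 6406 NE in P, led by hsa-miR-141-3p_R-1. All 4 markers of fibroblasts and smooth muscle were listed, with 11 names and 397679 NE in R against 1980918 NE in P. This sum was led by aja-miR-143_1ss22GT (289634 NE in R, 1866274 NE in P), and the miR-143 and miR-145 names in the list were called lower in R. No miR-199 or miR-214 name was called. Their log2 ratios ran from −0.44 (bta-miR-199a-3p_R-1_2ss20TC21TA) to 0.90 (bta-miR-199b), with −0.05 for oar-miR-199a-3p, the most abundant of them. For striated muscle 3 of 4 markers were listed, with 356 NE in R and 7393 NE in P, led by oar-miR-133_L+1. The sums of these 3 lists kept their direction under the other scalings. Erythroid markers (3 of 3 listed) had 6107 NE in R and 9425 NE in P, and their log2 ratio of −0.63 turned to 0.16 per clean read. Most of this sum was cgr-miR-486-5p (5052 NE in R, 8073 NE in P). The arms of miR-144 went in both directions, with 253 against 199 NE for hsa-miR-144-3p and 273 against 476 NE for hsa-miR-144-5p_L+2R-3. The miR-451 name had 2 reads in R and 1 in P. Leukocyte markers (2 of 3 listed, led by cgr-miR-142-5p_L-2R+1) had 12226 NE in R and 5418 NE in P, with 1 name at 0 in P. That name, of miR-223, had 1 read in R, so the sum was in effect that of miR-142. The part of tissue composition in the differences of the members was not tested.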

How the data were processed

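The authors filtered the reads with ACGT101-miR, removing common RNA families and repeats, matched sequences to miRBase 20.0 precursors and deposited for each entry a normalized signal per library (NE), which here equalled reads divided by a size factor. Deposited fold changes and p-values of the authors' own comparison were not used, and the candidate table served only for names and sequences. The NE of a name was summed over its entries, because reads of repeated names had been divided among them, and reads were recovered by dividing by the worth of 1 read. Among the members, bta-mir-2284aa-3-p3 was an exception, as its 2 entries held different sequences. Its reads were summed over both, while its length, seed, duplex and edit distances are those of the first. Members with at least 10 recovered reads over both libraries were described in full, others by range and counts. The members and lists were chosen with earlier results of these data known. The named markers came from general knowledge. Ratios have exact intervals, arm comparisons used Fisher's exact test with Benjamini-Hochberg adjustment over 4 hairpins (3 with at least 10 reads and mir-3432-2, fixed by name), with fractions of reads rounded for the tests and their intervals, and duplexes were folded with RNAduplex. The calculations were tested on simulated data. Alternatives were scaling by the clean reads of the study or the listed reads, setting the median ratio to 0, other conditions for calls, and other ways of collapsing names. The tools were ViennaRNA 2.7.2, scipy 1.17.1, pandas 2.3.3, numpy 2.4.6, matplotlib 3.10.9 and Python 3.11.15.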

Additional observations from a re-analysis of the deposited data

How the results depend on the processing

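Of 34 alternatives tried for the main results, 21 stayed within the margin set for each result, 12 moved the value and 1 reversed it. The 4 members called higher in R became 8 per listed read, 7 without a condition on counting error and 1 without mir-7641, and, within the margin, 6 with Fisher's exact test, 5 per clean read and 3 with reads listed once. The 2 members called lower became 0 per clean read, 0 per listed read, 0 with Fisher's exact test against clean reads and 1 with at least 10 reads in 1 library, and, within the margin, 3 without the condition. All known names called numbered 70 higher and 48 lower in NE, 152 and 19 per clean read, 249 and 10 per listed read, 84 and 37 with Fisher's exact test and 100 and 72 without the condition, each of 441 tested beside 20 members. They numbered 70 and 46 of 330 with at least 10 reads (8 members tested), 67 and 48 of 438 with reads listed once (19 members tested), and 67 and 48 of 438 without mir-7641 (17 members tested). The median log2 ratio of 0.44 became 1.22 per clean read, 1.96 per listed read and 1.43 with at least 10 reads, and, within the margin, 0.15 without mir-7641, 0.32 with 1 item per distinct sequence and 0.67 with 1 NE added. The summed log2 ratio of 1.63 became 2.42 per clean read, 3.16 per listed read and, reversed, −0.44 without mir-7641. Of 41 alternatives for other results, 28 left the call or count as reported, 3 weakened it, 3 strengthened it, 4 moved a value and 3 reversed the direction. The reversed ones were bta-mir-2285m-3-p5_1ss1AG per listed read (0.51) and bta-mir-3431-p3 per clean read (0.38) and per listed read (1.12). These shifts follow from the scaling itself, which adds 0.78 or 1.52 to every log2 ratio; which scaling is right was not tested. The log2 odds ratio of the arms of mir-3431 was 0.48 under both alternatives. Alternatives for mir-3432-2 were added after seeing the data and gave 0.80 and 0.31. Others added then moved the members listed in 1 library whose interval left out equality from 0 to 1 per clean read and 2 per listed read, and the members above their annotated arm in R from 1 to 0 with all variants summed. The log2 ratio of the other miR-2284 and miR-2285 names moved from −0.67 to −0.15 without the most abundant one. Leaving out a replicate was not applicable with 1 library per phase. No paired analysis was possible because each phase had 1 library.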

Other observations

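Some members recurred among the sequences that the authors listed as predicted candidates. Of 621 candidates compared, 1 or more lay at an edit distance of 1 from 5 members. The candidate PC-5p-21385_42, of 22 nt, began with the whole of bta-mir-2285m-3-p5_1ss1AG, and PC-5p-270395_2 began with the whole of bta-mir-2285o-3-p5_1ss5AG. The candidate PC-3p-270044_3, of 24 nt, ended with the whole of ssc-mir-4335-p3_1ss4CG, whose last bases are CCA. The same sequence was thus listed within both a known name and a candidate in these cases. Whether they came from the same hairpin was not tested.

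The rat name rno-mir-3548-p5 had 0 NE in R and 1.16 NE in P (1 read), and the annotated rno-miR-3548_1ss21CT had 0.860 NE in R against 3.49 NE in P. Both were near to epithelial miRNAs of the miR-200 family, with the longest shared runs on the other strand. The reverse complement of rno-mir-3548-p5 was at edit distance 3 from hsa-miR-141-3p_R-1 (28337 NE in R, 5791 NE in P) and shared a run of 16 bases with it. On its own strand it was at distance 4 from hsa-miR-200a-5p and from hsa-miR-141-5p_1ss11TC, with runs of 7 and 8 bases. That of rno-miR-3548_1ss21CT shared a run of 20 bases with hsa-miR-200a-5p (451 NE in R, 39.5 NE in P) at distance 4, and on its own strand it was at distance 5 from hsa-miR-141-3p_R+1. The sequences are printed with the seed in capitals.

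rno-mir-3548-p5: cATCGTTAccagacagtgttaga
hsa-miR-141-3p_R-1: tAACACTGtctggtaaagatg
rno-miR-3548_1ss21CT: cAGCACTGtccggtaagatgtc
hsa-miR-200a-5p: cATCTTACcggacagtgctgga

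Predicted targets were deposited for 7 members among 142 names. Their numbers ran from 277 for hsa-mir-7641-2-p3_1ss1TC to 685 for bta-mir-2887-2-p5, beside a median of 578.5 over all 142 names. The names bta-mir-2285m-3-p5_1ss1AG (526 targets) and bta-mir-2284z-4-p5_1ss1AG (549) shared 90, which was 17.1% and 16.4% of their lists. The overlapping mir-7641 pair, p3_1ss22TC (458) and p5 (292), shared 29, which was 6.33% and 9.93%. Over all 21 pairs of the 7 members, 9 to 90 targets were shared (median 45), or 3.08 to 22.8% of a list. An unrelated pair, hsa-mir-7641-2-p3_1ss22TC and bta-mir-2284z-4-p5_1ss1AG, shared 84 (18.3% and 15.3%), so the sharing was not particular to related names.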
